A study of Mus musculus with 2 samples.

Results

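The RNAs described here come from 34 of 35 genes of glycan assembly, out of 3134 genes listed in an eCLIP table of NIH3T3, an established line of mouse embryonic fibroblasts. They were taken by gene symbol alone, with name stems of the glycosyltransferases, sulfotransferases, Golgi mannosidases and GPI anchor genes (Galnt, Ext, Chst, Hs2st, Mgat, St3gal, Man1, Man2, Pig and others). The stems themselves use no count or ratio, but they were chosen with earlier results of these data known. Of the 34, 26 encode enzymes that transfer a sugar, an oligosaccharide or a sulfate group. The other 8 do not: 5 are alpha-mannosidases, which remove sugars, and Pigk, Pigs and Pign act on GPI anchors without transferring a sugar. In RefSeq, 177 mouse protein-coding symbols match the stems used for the 34, and the others among them are not analysed here.

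In eCLIP, ultraviolet light crosslinks proteins to the RNA they touch, and the RNA precipitated with 1 protein is sequenced. The protein here was HP1 alpha, a chromatin protein that reads methylated histone H3 and is known for packing heterochromatin. The HP1 alpha group was 1 library of untreated NIH3T3 cells, precipitated with an antibody against HP1 alpha. The input group was 1 library of the same line with no antibody. The table heads these columns MEF and mock, in place of NIH3T3 and input. With 1 library per group no test of the antibody against its control was possible. No value below has a replicate check, and it is not known how far a repeat of either library would differ.

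The listed counts summed to 513965 for HP1 alpha and 830031 for input. Every listed gene has at least 100 counts in 1 of the libraries. A ratio is a gene's share of the listed counts in HP1 alpha divided by its share in the input, and its 95% interval (exact binomial, Clopper-Pearson) covers counting error only. A gene was called higher or lower when its log2 ratio, with 0.5 counts added to each count, passed 2-fold and the interval excluded 1. Of the 14 fibroblast markers fixed for this line, 10 were listed, among them Col1a1 with 1765 HP1 alpha and 3184 input counts. Of 12 epithelial, endothelial and immune markers, 0 were listed. The libraries are bulk, so a smaller share from fewer cells and one from less RNA per cell cannot be told apart.

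Cells build glycans in the endoplasmic reticulum and the Golgi. Proteins receive N-glycans as a block from a dolichol lipid, mannosidases trim them, and branching, galactosyl- and sialyltransferases extend them. Other enzymes start O-linked sugars on serine and threonine, or polymerise and sulfate heparan and chondroitin sulfate on proteoglycans, which fibroblasts make in quantity for their matrix. The GPI pathway builds a glycolipid that anchors proteins to the membrane. The transcripts of these enzymes are ordinary messenger RNAs. The counts below are of their RNA in each library, and the ratios compare its share between the libraries. A ratio is thus no measure of how abundant an RNA is, and no value here is an amount of an enzyme.

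Ratios of the 34 genes ran from 0.497 for Pigs to 2.06 for Chst11, against 0.284 to 3.84 over all listed genes. By the 2-fold rule 1 was higher, Chst11, against 2.36% of all listed genes, and 0 were lower, against 0.83%. Without the fold, 12 had an interval above 1, against 15.4% of all listed genes, and 7 had one below 1, against 32.6%, while 15 had intervals that held 1. At 1.5-fold, 5 were higher, against 7.63% of all listed genes, and 4 were lower, against 12.3%. The median log2 ratio of the 34 was 0.04, and that of all listed genes was -0.21. Without Ext1, the most abundant of the 34, the median was -0.02. The 34 genes together held 1.10% of the HP1 alpha counts (1.07 to 1.13) and 0.980% of the input counts (0.959 to 1.001), a ratio of 1.12 (1.09 to 1.16). Without Ext1 that ratio was 1.08 (1.04 to 1.12). TMM and DESeq2 scaling move the median of all genes by 0.20 and 0.21 on the log2 scale. Under either, 14 of the 34 had an interval above 1 (against 23.3% and 23.9% of all genes), and 4 and 3 had one below 1 (against 13.7% and 12.4%).

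**Figure D1:**
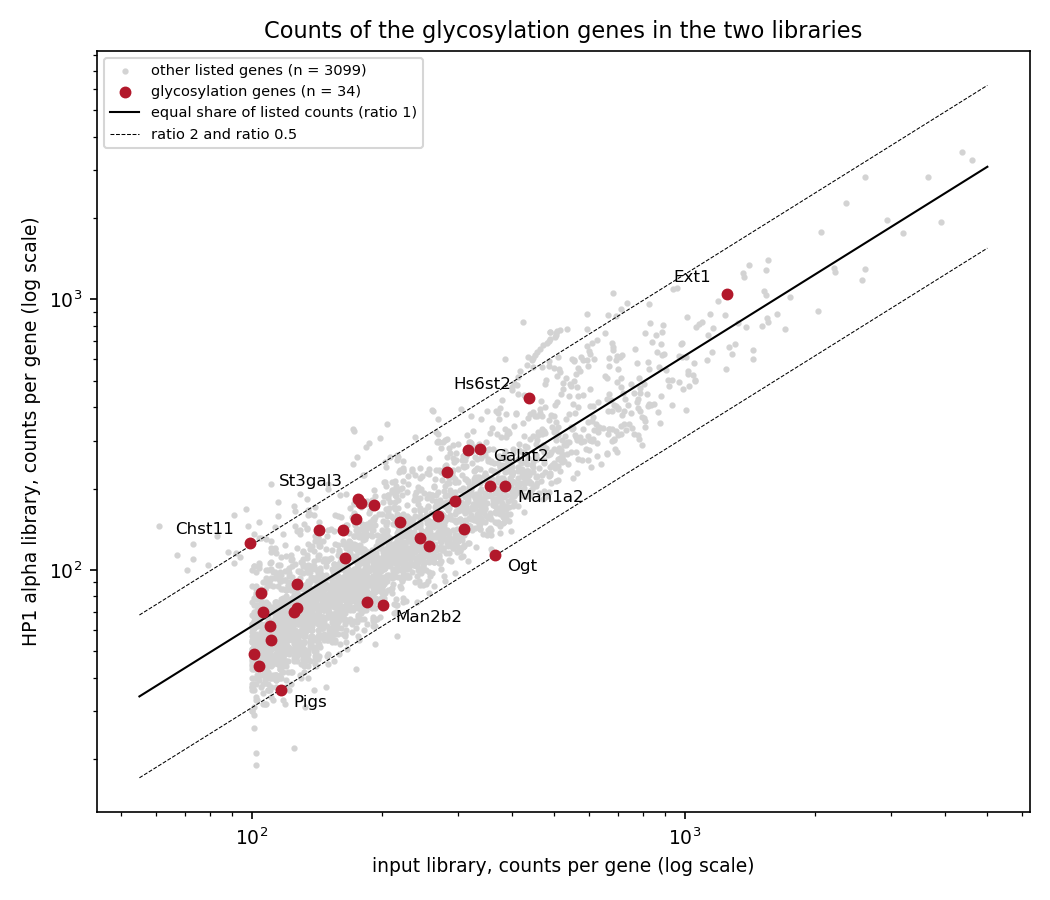
Counts of each gene in the input (x axis) and with HP1 alpha (y axis), both on log scales, with the 34 glycosylation genes in red and the other 3099 listed genes in grey; the solid line is an equal share of listed counts and the dashed lines are ratios of 2 and 0.5. Chst11 lies above the upper dashed line, Ext1 has the highest counts of the 34 in both libraries, and Ogt and Pigs lie at the lower dashed line.

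The listing limit bears on the genes with few counts. Of the 34, 21 had at least 100 counts in both libraries. Chst11 was the 1 gene under 100 in the input, so it entered the table by way of its HP1 alpha count, and a ratio above 1 was thereby fixed. Another 12 had fewer than 100 HP1 alpha counts and were listed only through the input, which favours a low ratio. Man1b1 and Man2b2, whose intervals lie below 1, are among them. For the 4 with the fewest HP1 alpha counts, Pigs, Mgat1, Hs6st1 and Pofut1, a ratio below 1 was fixed by the listing. Precision followed the counts. The upper bound of the interval was 1.18 times the lower bound for Ext1, 1.56 times at the median and 2.19 times for Pigs.

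Enzymes of heparan and chondroitin sulfate gave the most counts. Ext1 and Ext2 form the polymerase that lengthens heparan sulfate chains. Ext1 (ENSMUSG00000061731.5, chromosome 15 from 53068261 to 53346183) had 1044 HP1 alpha counts and 1254 input counts, a ratio of 1.34 (1.24 to 1.46). Ext2 (chromosome 2 from 93695631 to 93822568) had 158 and 269, a ratio of 0.949 (0.774 to 1.16), and this value passed 1 under TMM and DESeq2 scaling. Of the partners in this complex, Ext1 had an interval above 1, and that of Ext2 held 1.

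Ratios of the sulfotransferases that modify these chains ran from 0.783 to 2.06. Chst11, which adds sulfate to carbon 4 of chondroitin (ENSMUSG00000034612.7, chromosome 10 from 82984440 to 83195904), had 126 HP1 alpha counts and 99 input counts. Its ratio was 2.06 (1.57 to 2.70), and it was called higher. Hs6st2, a heparan sulfate 6-O-sulfotransferase on chromosome X, had 433 and 436 counts, nearly equal in number from unequal libraries, and a ratio of 1.60 (1.40 to 1.84). Its paralog Hs6st1, on chromosome 1, had 49 and 101 counts, for a ratio of 0.783 (0.545 to 1.11). Hs2st1, the 2-O-sulfotransferase, had 230 and 283 counts, for a ratio of 1.31 (1.10 to 1.57). Chsy1, a chondroitin synthase, had 82 and 105 and a ratio of 1.26 (0.933 to 1.70), which holds 1. Of these 7 genes, 4 had an interval above 1 and 0 had one below it, and their median log2 ratio was 0.39. The shares over all listed genes were 15.4% and 32.6%. The median span of the 7 was 141 kb, and of all listed genes that span at least 100 kb, 46.2% had an interval above 1.

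Mucin-type O-glycans start when a GALNT enzyme adds N-acetylgalactosamine to serine or threonine. Galnt10 had 278 HP1 alpha counts and 316 input counts, a ratio of 1.42 (1.20 to 1.67). Galnt2 had 281 and 337, a ratio of 1.35 (1.15 to 1.58). Galnt1 had 62 and 110, a ratio of 0.910 (0.656 to 1.25). Galnt10 and Galnt2 thus had intervals above 1, and that of Galnt1 held it. Over all listed genes 15.4% had an interval above 1. Galnt10 and Galnt2 span 142 and 114 kb, and of all listed genes that span at least 100 kb the share was 46.2%. Galnt1 was listed only through the input, which favours a low ratio.

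N-glycan transfer and the folding check in the endoplasmic reticulum gave ratios below 1 under the total scaling. Most listed genes did so too: 30.9% had a ratio above 1, and 32.6% had an interval below 1. Stt3a, a catalytic subunit of the oligosaccharyltransferase, had 123 HP1 alpha counts and 256 input counts, a ratio of 0.776 (0.621 to 0.966). Uggt1, which adds glucose back to the N-glycans of misfolded proteins, had 142 and 309, a ratio of 0.742 (0.604 to 0.908). Both intervals reached 1 under TMM and DESeq2 scaling. Uggt2, the paralog of Uggt1, had 72 and 127 counts and 0.916 (0.676 to 1.23), which turned above 1 under these scalings. It was listed only through the input, which favours a low ratio. Uggt1 and Hs6st1 are neighbours on chromosome 1, with 33.6 kb between their spans, and their ratios were 0.742 and 0.783.

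The alpha-mannosidases spread from 0.595 to 1.60. Man1c1, a class I mannosidase of the Golgi on chromosome 4, had 177 HP1 alpha counts and 179 input counts and a ratio of 1.60 (1.29 to 1.98). Man1b1, the class I enzyme known for marking misfolded glycoproteins for degradation, had 76 and 185 and a ratio of 0.663 (0.501 to 0.871). Its interval stayed below 1 under TMM scaling and reached 1 under DESeq2 scaling. Man2b2, an acid alpha-mannosidase, had 74 and 201 and a ratio of 0.595 (0.449 to 0.780), below 1 under both scalings. Man1b1 and Man2b2 were listed only through the input. The other two had intervals that held 1. They were Man1a2, with 205 and 385 counts and 0.860 (0.722 to 1.02), and Man2a1, the Golgi enzyme that trims before branching, with 204 and 354 and 0.931 (0.779 to 1.11). The value of Man2a1 turned above 1 under TMM and DESeq2 scaling.

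The branching enzymes Mgat1 and Mgat5, which act at the start and near the end of antenna formation, went apart. Mgat5 had 141 HP1 alpha counts and 162 input counts, a ratio of 1.41 (1.11 to 1.77). Mgat1 had 44 and 104, a ratio of 0.683 (0.469 to 0.981). The interval of Mgat1 reached 1 under TMM, DESeq2 and the authors' own scaling, and its direction was fixed by the listing limit.

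Among enzymes that extend and cap chains, the sialyltransferase St3gal3 had 183 HP1 alpha counts and 176 input counts, a ratio of 1.68 (1.36 to 2.08), the largest of the 34 that was not called higher. Fut10, named as a fucosyltransferase, had 140 and 143 counts and 1.58 (1.24 to 2.01). B4galt1, the main galactosyltransferase of N-glycans, had 180 and 295 counts and 0.985 (0.814 to 1.19), on the other side of 1 under TMM and DESeq2 scaling. St3gal2 had 131 and 245 counts and 0.864 (0.693 to 1.07), reaching 1 under DESeq2 scaling. Of these 4 genes, 2 had an interval above 1 and 0 had one below, against 15.4% and 32.6% of all listed genes.

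The 3 glycosphingolipid enzymes stayed near 1. They act in sequence: Ugcg makes glucosylceramide, B4galt5 makes lactosylceramide and St3gal5 makes the ganglioside GM3. Ugcg had 70 HP1 alpha counts and 125 input counts, a ratio of 0.904 (0.665 to 1.22) that turned above 1 under TMM and DESeq2 scaling. B4galt5 had 150 and 220, a ratio of 1.10 (0.889 to 1.36). St3gal5 had 111 and 164, a ratio of 1.09 (0.851 to 1.40). Each interval held 1, and under TMM and DESeq2 scaling that of B4galt5 lay above it.

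Enzymes of protein O-linked sugars other than the mucin type differed widely. Ogt, the X-linked enzyme that adds O-GlcNAc to nuclear and cytoplasmic proteins, lay near the low end of the range. It is on chromosome X from 101640011 to 101684351 (ENSMUSG00000034160.9) and had 114 HP1 alpha counts and 364 input counts. The ratio was 0.506 (0.406 to 0.626), and its log2 ratio of -0.98 missed the 2-fold rule. Of the 7 genes with an interval below 1 it had the highest input count, and the interval stayed below 1 under each scaling. Gxylt2 and Gxylt1, which add xylose to O-glucose on Notch-type repeats, had 154 and 174, and 89 and 127 counts. Their ratios were 1.43 (1.14 to 1.79) and 1.13 (0.853 to 1.496). Pofut1, the O-fucosyltransferase of Notch, had 55 and 111 counts and 0.8002 (0.568 to 1.12).

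In the GPI pathway, Pign, which adds ethanolamine phosphate to the anchor, had 174 HP1 alpha counts and 192 input counts, a ratio of 1.46 (1.19 to 1.81). Pigk, the catalytic subunit of the transamidase that attaches anchors to proteins, had 70 and 106 and a ratio of 1.07 (0.777 to 1.46). Pigs, another subunit of the same complex (ENSMUSG00000041958.10, chromosome 11 from 78328422 to 78342776), had 36 and 117 and the lowest ratio, 0.497 (0.332 to 0.727). With the added 0.5 counts its log2 ratio was -0.995 and just missed the 2-fold rule. Gpaa1, also a subunit of it, is outside the 34 and had 33 and 118 counts, 0.452 (0.297 to 0.669), and was called lower. Pigk, Pigs and Gpaa1 were listed only through the input. The HP1 alpha counts of Pigs and Gpaa1 were so low that a ratio below 1 was fixed for them.

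**Figure D2:**
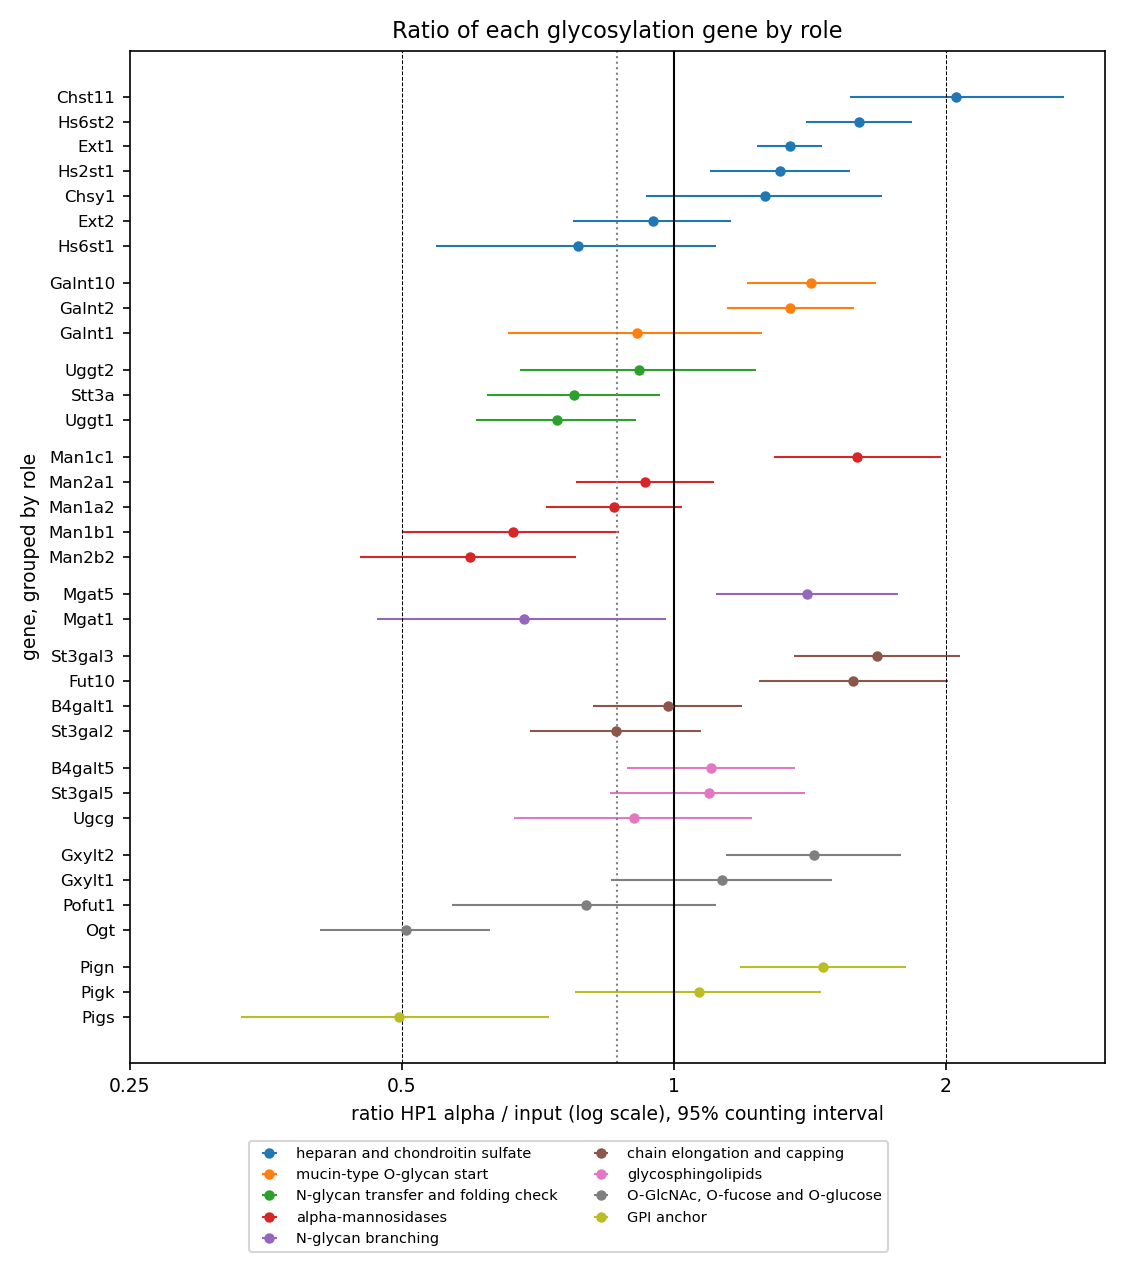
Ratio of HP1 alpha over input for each of the 34 genes (x axis, log scale) with its 95% counting interval, grouped by role on the y axis; the solid line is 1, the dashed lines are 0.5 and 2, and the dotted line is the median ratio of all listed genes. Chst11 is the 1 gene past 2, the 3 glycosphingolipid genes straddle 1, and the mannosidase and O-linked groups spread to both sides.

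The largest difference between paralogs was that of Man1c1 and Man1b1, so their promoters are shown, with those of Chst11, the gene called higher, and Pigs, the lowest gene. Each runs 5′ to 3′ from 250 bases before to 50 bases after a RefSeq start in GRCm38.p6, and capitals mark CpG.
Man1c1: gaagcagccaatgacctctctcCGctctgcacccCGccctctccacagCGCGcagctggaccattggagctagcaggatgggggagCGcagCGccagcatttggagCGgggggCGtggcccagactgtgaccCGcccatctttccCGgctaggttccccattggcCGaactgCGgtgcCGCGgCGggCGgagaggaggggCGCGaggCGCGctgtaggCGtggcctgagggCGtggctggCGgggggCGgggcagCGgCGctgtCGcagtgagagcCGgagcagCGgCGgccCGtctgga
Man1b1: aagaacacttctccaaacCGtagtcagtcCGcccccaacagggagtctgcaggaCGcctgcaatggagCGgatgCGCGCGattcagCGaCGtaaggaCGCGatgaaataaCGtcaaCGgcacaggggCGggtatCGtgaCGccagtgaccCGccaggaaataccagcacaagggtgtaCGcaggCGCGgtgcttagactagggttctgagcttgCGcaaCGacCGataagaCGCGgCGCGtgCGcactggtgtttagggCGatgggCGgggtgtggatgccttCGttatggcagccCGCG
Chst11: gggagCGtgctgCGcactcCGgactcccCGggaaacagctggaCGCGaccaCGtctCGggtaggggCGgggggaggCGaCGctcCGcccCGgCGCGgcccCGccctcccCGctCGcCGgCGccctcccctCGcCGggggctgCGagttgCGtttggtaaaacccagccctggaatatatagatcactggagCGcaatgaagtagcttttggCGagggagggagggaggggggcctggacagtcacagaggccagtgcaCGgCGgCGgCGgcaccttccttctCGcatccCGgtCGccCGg
Pigs: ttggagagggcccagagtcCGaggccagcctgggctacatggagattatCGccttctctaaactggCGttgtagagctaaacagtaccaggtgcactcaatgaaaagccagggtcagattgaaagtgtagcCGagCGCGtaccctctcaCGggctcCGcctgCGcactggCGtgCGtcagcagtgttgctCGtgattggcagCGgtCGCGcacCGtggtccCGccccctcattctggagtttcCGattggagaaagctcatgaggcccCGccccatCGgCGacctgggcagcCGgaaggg
They lie at chr4:134704241-134704540 on the minus strand (Man1c1) and, on the plus strand, at chr2:25332493-25332792 (Man1b1), chr10:82985247-82985546 (Chst11) and chr11:78328172-78328471 (Pigs). They hold 31, 33, 34 and 22 CpG in that order, each more than the table median of 7 for a promoter.

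Promoters of 27 of the 34 genes were in the table, 31 in all, with a median of 26 CpG and a range of 2 to 53. The median was 23 over the promoters of all listed genes and 7 over the 32851 promoters of the table. The letters GGGCGG, searched on both strands, were in 74.2% of the promoters of the 34 genes, in 67.9% of those of all listed genes and in 35.7% of the whole table. TATAAA, searched likewise, was in 3.23%, 7.22% and 13.6%. Across the 24 genes with 1 promoter each, Spearman's rho of the ratio with the number of CpG was -0.02, a description of genes that share both libraries.

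Ratios among the 34 genes followed gene length. Span here is the distance from first to last base in RefSeq (GRCm38.p6), introns included. The 34 genes had a median span of 92.9 kb, against 48.2 kb for all listed genes, and ran from 14.4 kb for Pigs, the gene with the lowest ratio, to 295 kb for Hs6st2. Spearman's rho of ratio with span was 0.76 across the 34 genes, and 0.61 across the 3089 listed genes with a span. These genes share both libraries and are not independent, so the values are descriptions. Without Ext1 rho was also 0.76, and among the 21 genes with at least 100 counts in both libraries it was 0.61.

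**Figure D3:**
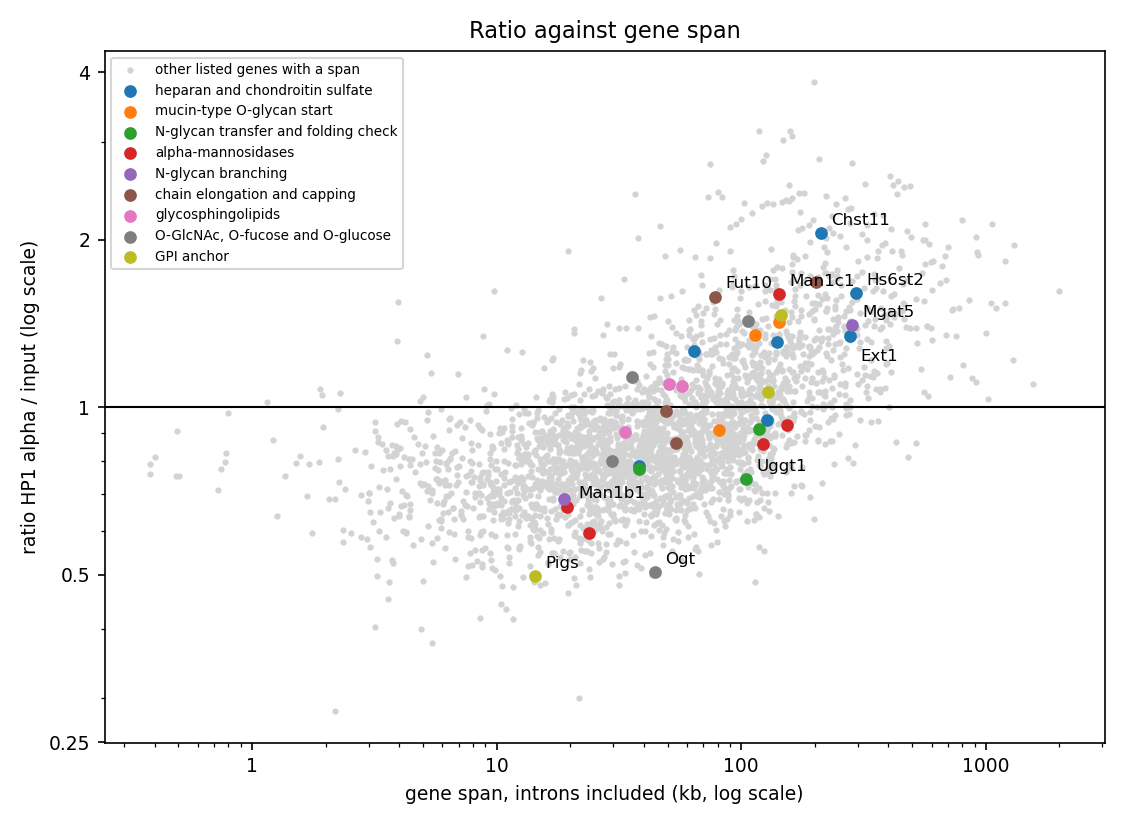
Ratio of HP1 alpha over input (y axis, log scale) against gene span in kb (x axis, log scale) for the 34 genes, coloured by role, and the other listed genes in grey. Ratios climb from Pigs at 14.4 kb to Chst11 at 211 kb and Hs6st2 at 295 kb; Ogt and Uggt1 lie low, and Fut10 high, for their span.

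The same held when the genes were split at 100 kb. Of the 17 that span at least 100 kb, 11 had an interval above 1 and 1 (Uggt1) had one below, against 46.2% and 9.35% of all listed genes of that span. Of the 17 shorter genes, also 1 (Fut10) had an interval above 1 and 6 had one below, against 4.72% and 40.9% of all listed genes under 100 kb. The listing limit bears on this split. Of the 6, Pigs, Mgat1, Man1b1 and Man2b2 were listed only through the input, and a ratio below 1 was fixed for Pigs and Mgat1. Of the 11 longer genes above 1, Chst11 was fixed above 1. Whether reads were counted over introns is not given in the sources used here, and its part in this relation was not tested.

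Each gene was next set against the 200 listed genes nearest to it in span. Against the median log2 ratio of those genes, 21 of the 34 lay above, as did 50.7% of all genes, and the median difference of the 34 was 0.04. Past 2-fold above that median lay 0 of the 34, against 1.23% of all genes. The interval lay above the median of like span for 14, against 15.4% of all genes, and below it for 6, against 11.8%. Ext1 and Mgat5, whose intervals lie above 1, had log2 ratios of -0.03 and 0.03 relative to genes of like span.

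Some genes stood away from genes of their own length. Fut10, at 78.0 kb, had the largest excess, 0.80 on the log2 scale, followed by Chst11 with 0.66. Gxylt2, Man1c1, Chsy1 and Gxylt1 had 0.54, 0.54, 0.53 and 0.50. At the other end Ogt, at 44.3 kb, had -0.73, Pigs -0.58, and Uggt1 and Man2b2 both -0.42. Over all genes 50.7% lay above the median of like span. Of the 26 sugar and sulfate transferases 18 did, with a median difference of 0.20. Of the other 8 genes 3 did, with a median of -0.25. That difference between the kinds of gene was not tested, since the genes share both libraries. The listing limit bears on it as well. Of the 8, Pigs, Pigk, Man1b1 and Man2b2 were listed only through the input. So were the transferases Chsy1, Gxylt1, Uggt2, Galnt1, Ugcg, Pofut1, Hs6st1 and Mgat1.

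Families of paralogs allow a comparison at like function, in which the scaling of the libraries cancels. The 34 genes hold 14 pairs within 8 families that share a kind of reaction. For each pair the ratio of the longer gene was divided by that of the shorter, with an exact 95% interval. In 14 of the 14 pairs the longer gene had the higher ratio, as it did in 78.6% of all 561 pairs of the 34 genes and in 71.6% of all pairs of listed genes. In 8 pairs the interval lay above 1, and in 6 it held 1. Hs6st1, Galnt1, Man1b1 and Gxylt1, each the shorter gene of its pairs, were listed only through the input, which favours a low ratio. So was Uggt2, the longer gene of its pair. Of the 8 pairs, Ext1 with Ext2, Man1c1 with Man1a2, and St3gal3 with St3gal2 and St3gal5 have at least 100 counts in both libraries. The pairs were formed after the ratios were seen, and pairs within a family share genes.

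Man1c1, at 143 kb, had 2.40 times the ratio of Man1b1, at 19.5 kb (1.69 to 3.43). Hs6st2, at 295 kb, had 2.05 times that of Hs6st1, at 38.0 kb (1.40 to 3.02). St3gal3, at 203 kb, had 1.94 times that of St3gal2, at 54.3 kb (1.43 to 2.64). Spans were unlike in each of these pairs. Man1c1 also exceeded Man1a2 by 1.86 times (1.41 to 2.45), although their spans of 143 and 123 kb are close. Ext1 exceeded Ext2 by 1.42 times (1.14 to 1.77). Of the pairs that did not separate, B4galt5 and B4galt1 span 50.7 and 49.4 kb, and their ratios differed by 1.12 times (0.838 to 1.49). Galnt10 and Galnt2 differed by 1.06 times (0.836 to 1.33). Relative to genes of like span, the longer gene was the higher in 12 of the 14 pairs. The share over all pairs was not computed for this measure. The limits of the listing and of pairs formed after the ratios were seen apply here too.

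**Figure D4:**
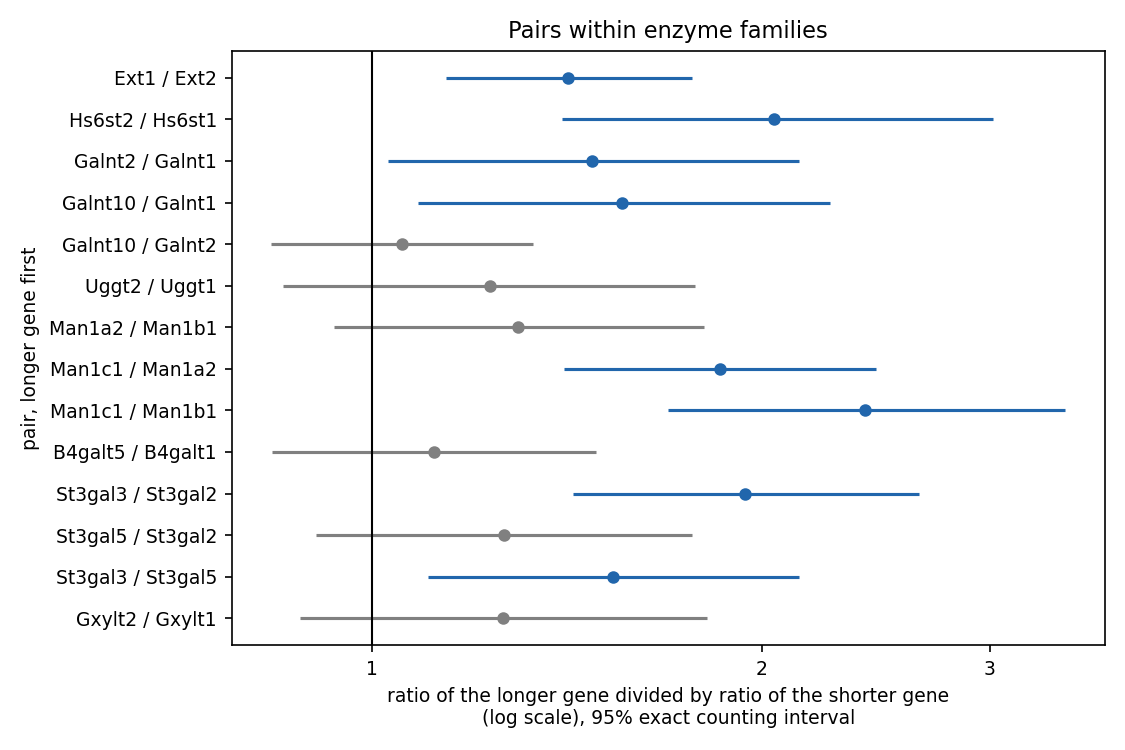
Ratio of HP1 alpha over input of the longer gene divided by that of the shorter gene (x axis, log scale) for the 14 pairs within families (y axis), with exact 95% counting intervals; blue intervals lie above 1 and grey ones hold it. The points run from 1.06 for Galnt10 and Galnt2 to 2.40 for Man1c1 and Man1b1.

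Levels per length put the genes in another order. On the scale of CPM (counts scaled to 1000000 listed counts) per kb of span, the 34 genes ran from 0.564 (Chst11) to 11.4 (Man1b1) in the input, a range of 20.3-fold. With HP1 alpha they ran from 0.968 (Mgat5) to 7.59 (Man1b1), a range of 7.84-fold. The medians were 3.33 and 3.36. Ext1 was dense for its length, at 5.44 in the input and 7.31 in HP1 alpha, whereas Hs6st2, of like span, had 1.78 and 2.86. Ogt had 9.89 in the input and 5.00 in HP1 alpha. This level fell with span (rho -0.74 in the input and -0.60 in HP1 alpha), which is partly given in advance. Span is the divisor of the level, and the listing limit sets a floor on it that is higher for shorter genes.

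**Figure D5:**
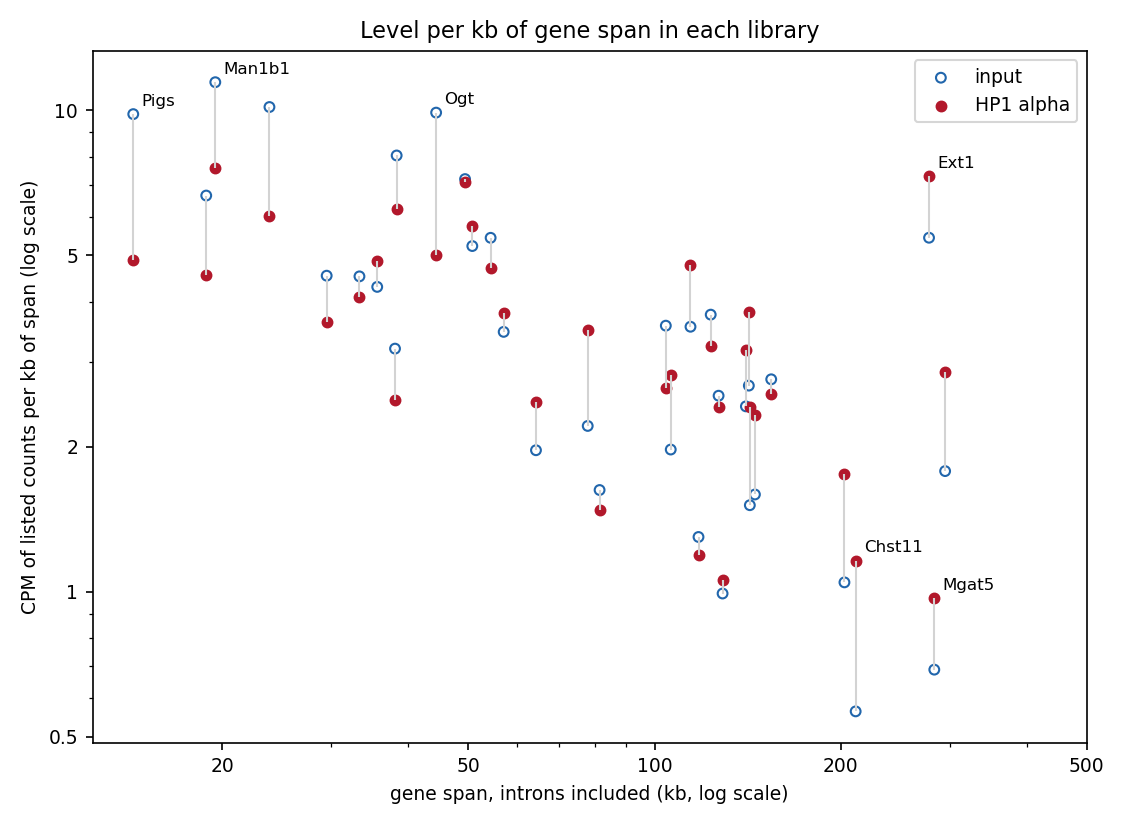
Level of each of the 34 genes in CPM of listed counts per kb of span (y axis, log scale) against span in kb (x axis, log scale), with the input as open blue circles, HP1 alpha as filled red circles and a grey line joining the values of 1 gene. Below about 50 kb most input points lie above the HP1 alpha points, as for Pigs, Man1b1 and Ogt, and for Chst11, Mgat5 and Ext1 the HP1 alpha point lies above.

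Other genes of glycan assembly were taken from 9 lists fixed with the design, and 46 of them were listed. Of these 46, 0 were higher, 1 (Gpaa1) was lower, 6 had an interval above 1 and 21 had one below, with a median log2 ratio of -0.33. Over all listed genes 2.36% were higher, 0.83% lower, 15.4% above 1 and 32.6% below. For 9 of the 21 with an interval below 1, HP1 alpha counts were so low that the listing fixed a ratio below 1. Ugp2, Ddost, Lman1, Vcan and Plod3, also of the 21, were likewise listed only through the input, without that being fixed. Under TMM and DESeq2 scaling more of the 46 had an interval above 1 and fewer had one below, as over all listed genes. The median span of the 46 was 41.9 kb, and relative to genes of like span their median was -0.05. The 3 subunits of the oligosaccharyltransferase outside the 34, Rpn2, Ddost and Magt1, had 0.793, 0.582 and 0.646, each with an interval below 1. Under TMM and DESeq2 scaling the interval of Ddost stayed below 1 and those of Rpn2 and Magt1 reached it. Magt1, with 52 HP1 alpha counts, was fixed below 1 by the listing limit. Of 5 listed lectins and trimming genes of the endoplasmic reticulum, 4 had an interval below 1, against 40.9% of all listed genes under 100 kb. These 5 span at most 67.0 kb, and their median relative to genes of like span was -0.0008. Under TMM and DESeq2 scaling the interval of Canx reached 1, and those of Calr, Lman1 and Edem3 stayed below it. The lowest of the 5 was Edem3, a mannosidase-like gene of glycoprotein degradation. It had 55 and 177 counts and 0.502 (0.364 to 0.683), and the listing limit fixed its ratio below 1.

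Genes that supply sugar donors went both ways. Of 7 listed, 2 had an interval above 1 and 3 had one below, against 15.4% and 32.6% of all listed genes. Of the 3, Nans, with 55 HP1 alpha counts, was fixed below 1 by the listing limit. Gmds, which starts GDP-fucose synthesis and spans 519 kb, had 1.39 (1.17 to 1.64). Gfpt1, which opens the hexosamine pathway and spans 49.4 kb, had 0.737 (0.594 to 0.910), which reached 1 under TMM and DESeq2 scaling. Of the 2 listed transporters, Slc35a3, which carries UDP-N-acetylglucosamine into the Golgi, had 38 and 123 counts and 0.499 (0.337 to 0.723), a ratio fixed below 1 by the listing limit. The other, Slc35e1, had 81 and 134 counts and 0.976 (0.732 to 1.30).

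Of 13 listed proteoglycan core proteins, the substrates of the heparan and chondroitin sulfate enzymes, 2 had an interval above 1 and 6 had one below, with a median log2 ratio of -0.33. The shares over all listed genes were 15.4% and 32.6%, and 2 of the 6, Sdc1 and Sdc3, were fixed below 1 by the listing limit. Under TMM and DESeq2 scaling the intervals of Sdc2, Gpc6, Cd44 and Tgfbr3 lay above 1, and those of Hspg2 and Bgn lay below. The other core proteins held 1. The shares over all listed genes were then 23.3% and 23.9% above 1, and 13.7% and 12.4% below. Syndecan-2 (Sdc2) had 487 and 476 counts and 1.65 (1.45 to 1.88). Glypican-6 (Gpc6), spanning 1055 kb, had 545 and 572 and 1.54 (1.37 to 1.73). Perlecan (Hspg2), the most abundant of them, had 1176 and 2572 and 0.738 (0.689 to 0.791) with a span of 102 kb. Of 4 listed glycosaminoglycan enzymes outside the 34, Fam20b, the xylose kinase of the linker, had 47 and 140 counts and 0.542 (0.381 to 0.759), fixed below 1 by the listing limit, and Glce, the epimerase of heparan sulfate, had 1.12 (0.813 to 1.53). Of 10 other listed glycosyltransferase and related genes, 2 had an interval above 1, Gtdc1 with 1.70 (1.30 to 2.22) and Tmtc1 with 1.33 (1.001 to 1.75), and 1 had one below. Of the COG complex, which tethers vesicles that carry Golgi enzymes, Cog4 was listed, with 0.755 (0.554 to 1.02).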

How the data were processed

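RNA recovered with HP1 alpha and from an input was measured by eCLIP in 1 library each. Per the submitters' processing notes, STAR 2.6.0c and featureCounts were used with build GRCm38. Not given in the sources used here are the strand setting, counting over exons or introns, the handling of shared reads and any removal of PCR copies. The authors deposited read counts per gene, as raw whole numbers, and a fold scaled, per the file headers, to total mapped reads; it equals 1.66 times the ratio of the counts throughout. Other columns of sample values numbered 0.

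Of the 35 genes that the symbol stems take, 1 is not reported here and stays out of every count of the 34. The 34 were matched to RefSeq (GRCm38.p6) by symbol. Of all 3134, 2969 matched by symbol, 120 by synonym and 45 did not. Of the 34 spans, 0 overlapped another listed gene, 19 overlapped another RefSeq gene, and 2 (Pigk and Hs2st1) a protein-coding one.

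Counts were scaled by the listed totals (Python 3.11.15, scipy 1.17.1). Intervals of pairs are conditional exact odds ratio intervals. Reads may include PCR copies, so intervals cover counting error only; they compare libraries, not conditions. Alternatives were TMM (edgeR 4.0.16), DESeq2 1.42.0 size factors, the authors' constant, totals without the 10 most abundant genes, a minimum of 400 counts over both libraries, a pseudocount of 5, other folds, and genes of like span. The naming rule took members by role, by rank of ratio and by abundance; all 34 are given with both counts. Members and lists were chosen with earlier results of these data known.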

Additional observations from a re-analysis of the deposited data

How the results depend on the processing

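No paired analysis was possible because there is only 1 library in each group. The 1 higher gene became 0 at a minimum of 400 counts over both libraries, which leaves 11 of the 34 genes and drops Chst11, and 0 against genes of like span. It became 5 at 1.5-fold and 12 with no fold, against 7.63% and 15.4% of all listed genes. The 0 lower genes became 4 at 1.5-fold and 7 with no fold, against 12.3% and 32.6%. The median log2 ratio, 0.04 as reported, was 0.24 under TMM, 0.25 under DESeq2 scaling and 0.14 over sugar and sulfate transferases alone, and it turned to -0.020 at the minimum of 400. In settings chosen after the data were seen it was 0.39 among the 21 genes with at least 100 counts in both libraries, and -0.020 without Ext1. The same minimum of 100 in both libraries moved the median of all listed genes from -0.21 to -0.04. The correlation (Spearman) of ratio with span became 0.64 at the minimum of 400 and 0.32 against genes of like span. That last setting takes span out by construction over all listed genes, where the correlation was 0.03. Under TMM and under DESeq2 scaling, 32 of the 34 single log2 ratios stayed within their counting intervals, and those of Ext1 and Hs6st2 moved up. Against genes of like span 30 did, and those of Ext1, Hs6st2, Mgat5 and St3gal3 moved down. Genes near 100 counts have the widest intervals.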
